A study of Mus musculus with 4 samples.

Results

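Type I interferon induced genes were followed in cultured mouse spleen cells, as 38 genes taken by symbol from the gene names on an Agilent array that carries 31829 gene names. The members were the Mx, Oas and Ifit families, nucleic acid sensors, Irf transcription factors, the Isg15 system and further antiviral effectors, and each was matched to its probes by gene name. The cells came from the spleens of female C57BL/6 mice aged 8 weeks and were cultured for 72 h with IL-4 and LPS, a mixture that activates B cells. Imatinib, which blocks tyrosine kinases such as ABL and KIT, was added at 10 µM to the imatinib cultures and left out of the control cultures. Each group had 2 samples, all 4 received IL-4 and LPS, and no unstimulated or interferon-treated culture was analysed here. It is not stated whether samples of a group were separate cultures or animals, so the p-values measure the spread between these samples, which may be technical. The cultures held mixed cell types, and a lower signal from fewer cells of a type cannot be told apart from less RNA per cell.

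Type I interferons (the interferon alphas and interferon beta) bind the receptor chains IFNAR1 and IFNAR2. The kinases JAK1 and TYK2 then phosphorylate transcription factors that include STAT2, which joins IRF9 in a complex that binds the interferon-stimulated response element (ISRE) of target promoters. Another element of many such promoters is the gamma-activated sequence (GAS). LPS is a textbook inducer of interferon beta through TLR4, TICAM1 and IRF3, and B cells, macrophages and dendritic cells of the spleen all respond to the cytokine.

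RefSeq promoters of build GRCm38.p6 (250 bases before to 50 after the start site) were searched on both strands for the ISRE core GAAANNGAAA, overlapping matches included. The stretches below were picked from promoters that hold the core, and promoters without a match, such as that of Isg20, are not shown. They are from the lower genes Isg15, Oas1a, Oas3, Bst2 and Ifitm3 and the higher gene Ifit3. Ifit1, of the same family as Ifit3, is also shown, and its difference did not pass the test. Each is written 5′ to 3′ on the strand of its gene with the core in capitals, and a run of capitals longer than the core holds overlapping matches. The Isg15 stretch is chr4:156200819-156200978 (minus strand), Oas1a is chr5:120907526-120907685 (minus), Oas3 is chr5:120777660-120777819 (minus) and Bst2 is chr8:71537473-71537632 (minus). The Ifit3 stretch is chr19:34583369-34583528 (plus) and the Ifit1 stretch is chr19:34640729-34640888 (plus), all of them the 160 bases before the start site. For Ifitm3 the 27 bases at chr7:141010716-141010742 (minus) are shown, which begin 3 bases into the transcript.
Isg15: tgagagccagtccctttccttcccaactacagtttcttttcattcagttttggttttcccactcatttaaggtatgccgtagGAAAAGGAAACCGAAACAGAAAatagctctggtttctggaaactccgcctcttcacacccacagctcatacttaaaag
Oas1a: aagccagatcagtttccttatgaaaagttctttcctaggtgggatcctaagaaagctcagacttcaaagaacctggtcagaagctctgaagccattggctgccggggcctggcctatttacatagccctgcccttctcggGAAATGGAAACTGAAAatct
Oas3: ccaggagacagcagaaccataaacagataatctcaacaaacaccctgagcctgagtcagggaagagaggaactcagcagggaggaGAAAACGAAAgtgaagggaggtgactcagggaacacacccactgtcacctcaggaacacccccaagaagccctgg
Bst2: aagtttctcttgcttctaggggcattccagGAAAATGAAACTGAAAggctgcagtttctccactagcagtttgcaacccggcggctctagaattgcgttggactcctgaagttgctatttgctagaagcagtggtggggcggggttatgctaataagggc
Ifit3: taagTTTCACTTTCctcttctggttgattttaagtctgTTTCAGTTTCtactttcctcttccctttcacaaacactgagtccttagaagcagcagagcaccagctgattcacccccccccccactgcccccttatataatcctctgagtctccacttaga
Ifit1: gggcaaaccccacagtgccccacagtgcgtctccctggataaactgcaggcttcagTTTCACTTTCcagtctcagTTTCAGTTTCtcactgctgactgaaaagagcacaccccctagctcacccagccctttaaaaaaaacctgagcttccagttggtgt
Ifitm3: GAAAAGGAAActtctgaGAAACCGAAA

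The ISRE core was found in 12 of the 28 members with a promoter in the table (42.9%), against 1079 of 27025 genes (3.99%). These were Isg15, Oas1a, Oas1g, Oas3, Bst2, Ifit1, Ifit3, Ifitm3, Ddx58, Eif2ak2, Ifih1 and Rsad2. The GAS letters TTCNNNGAA, which read the same on both strands, were found in 10 of the 28 (35.7%), against 2582 of the 27025 genes (9.55%), and overlapped the ISRE core in Bst2 and Ifitm3. A match describes these letters only and shows no binding. Mx1, Mx2, Oas1b, Oas2, Usp18, Dhx58, Zbp1, Parp9, Parp14 and Rtp4 had no entry in the table.

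Of the 39429 probes on each array, 25017 to 26758 were well above background, and none of the spots reached saturation. Pearson's r over the tested probes, which are not independent of each other, was 0.998 between the imatinib arrays, 0.997 between the control arrays and 0.982 to 0.984 for an imatinib array with a control array. Signals are given as normalised log2 signal, the log2 of the scanner's processed signal relative to the 75th percentile of its array, so that 0 is that percentile and levels of different probes are not comparable. A gene was called lower or higher with imatinib at a Benjamini-Hochberg adjusted p under 0.05 in limma over all tested probes. The brightest tested probe stood for its gene. With 2 against 2 arrays, an exact permutation test of a single gene cannot give a two-sided p under 0.333, so all p-values are from limma, which shares the spread across probes, and the number of arrays limits every one of them.

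Most of the interferon induced genes were lower with imatinib. Of the 38 members, 36 could be tested and all 36 were well above background on all 4 arrays, so none passed through one group alone. With imatinib, 23 members fell (63.9%), 1 rose (Ifit3) and 12 did not pass the test, where 22.8% of all 20542 genes tested fell and 18.8% rose. At least 2-fold falls were found for 7 members (Mx1, Mx2, Oas1a, Oas3, Dhx58, Isg20 and Ifitm3), where 1.35% of all genes fell that far, and an at least 2-fold rise for Ifit3, where 6.13% of all genes rose that far. The median log2 difference, imatinib minus control, was -0.53 over the members, with a range of -1.65 to 1.43, and -0.00 over all genes. The difference was below 0 in 32 of the 36 members (88.9%) and in 50.4% of all genes. Oas1g was not well above background on any array with either of its probes, and Trim25, a ubiquitin ligase that activates RIG-I, was bright on all 4 arrays but its control spots carried an outlier mark, so neither was tested.

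**Figure D1:**
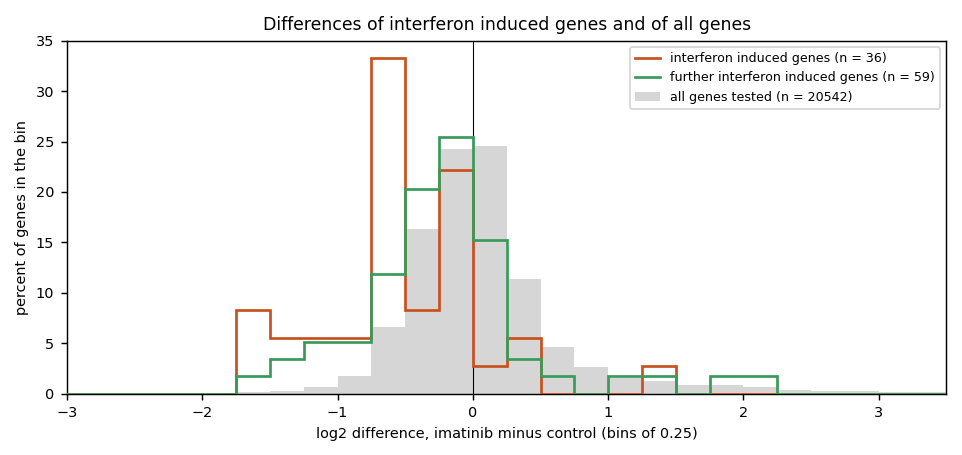
Share of genes (percent, y axis) in bins of the log2 difference, imatinib minus control (x axis), for the 36 tested interferon induced genes, 59 further interferon induced genes outside the members and all 20542 genes tested. The members lie mostly left of 0, with a median of -0.53, while all genes centre on 0.

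The Mx GTPases, dynamin-like proteins that trap viral nucleocapsids, both fell. Mx1 had a normalised log2 signal of -1.89 and -2.04 on the imatinib arrays, against -0.36 and -0.35 on the control arrays, a difference of -1.61 (SE 0.0769, limma adjusted p = 0.0012). Mx2 had -1.81 and -1.77 on the imatinib arrays against -0.15 and -0.35 on the control arrays, a difference of -1.54 (SE 0.0889, adjusted p = 0.00173). In both genes the imatinib arrays lay below both control arrays by far more than replicates differed, and control signal was 3.05-fold and 2.91-fold the imatinib signal. C57BL/6 mice carry Mx alleles that do not give functional proteins, so these are transcript levels only.

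Among the Oas genes, 3 of 6 tested members fell and none rose. Several proteins of this family, though not all, make 2′-5′ oligoadenylate on double-stranded RNA and so switch on RNase L. Oas1a had 2.05 and 1.97 on the imatinib arrays against 3.58 and 3.37 on the control arrays, a difference of -1.47 (SE 0.0966, adjusted p = 0.00231), and its dimmer probe differed by -1.54. Oas3 had -2.81 and -2.84 on the imatinib arrays against -1.56 and -1.61 on the control arrays, a difference of -1.24 (SE 0.0613, adjusted p = 0.00126). Oasl2, an Oas-like protein with ubiquitin-like domains, had -0.49 and -0.56 on the imatinib arrays against 0.09 and 0.08 on the control arrays, a difference of -0.61 (SE 0.0618, adjusted p = 0.00551). The groups did not overlap in any of these 3 genes. With 2 against 2 arrays such a separation has an exact permutation p of 0.333. It was seen in most tested members, with and without a call. Its share over all genes was not counted, so it is not read as a trait of the members. This limit holds wherever groups are said below not to overlap. The Oas3 difference was -0.81 with normexp background correction.

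The other tested Oas members gave no call, although 5 of the 6 were lower under median centring and all 6 under spike-in scaling. Under these scalings 35.3% and 45.0% of all genes were lower. Oas1b lay between 3.93 and 4.01 on all 4 arrays with a difference of -0.02 (adjusted p = 0.8), and C57BL/6 carries a truncated allele of it. Oas2 lay between -0.20 and 0.11 (difference -0.17) and Oasl1, a repressor of Irf7 translation, between 4.65 and 4.90 (difference -0.13). The family members resemble each other, so the target of the Oas1 probes is uncertain, although the longest run of bases that a member's probe shared with another Oas probe was 14, between Oas1a and Oas1f.

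Of the Ifit genes, whose proteins bind the ends of viral RNA, none of 3 fell and 1 rose. Ifit3 had -1.08 and -1.14 on the imatinib arrays against -2.65 and -2.43 on the control arrays, a difference of 1.43 (SE 0.0981, adjusted p = 0.00252), or 2.69-fold. Its imatinib arrays both lay above both control arrays. Ifit2 had -2.63 and -2.74 on the imatinib arrays against -3.03 and -2.91 on the control arrays, a difference of 0.29 that did not pass (adjusted p = 0.051). With spike-in scaling this Ifit2 difference was 0.02 and with median centring it was 0.11, and 3 of the 14 alternative settings called it higher. Ifit1 lay between -1.50 and -1.38 with a difference of -0.08 (adjusted p = 0.336). The Ifit3 and Ifit1 promoters printed above both hold 2 ISRE cores, and whether the 2 genes differ in their response was not tested. Ifit3 has a near-identical copy in the mouse, so its probe's target is uncertain.

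Of the sensors of foreign nucleic acid, 4 of 5 fell. Dhx58, the helicase LGP2 that tunes RIG-I and MDA5, had -0.29 and -0.25 on the imatinib arrays against 0.87 and 0.80 on the control arrays, a difference of -1.10 (SE 0.0636, adjusted p = 0.00174). Zbp1, a sensor of Z-form nucleic acid, had 2.06 and 2.05 on the imatinib arrays against 2.69 and 2.62 on the control arrays, a difference of -0.60 (SE 0.061, adjusted p = 0.0055). Eif2ak2, the kinase PKR that halts translation on double-stranded RNA, had -0.54 and -0.54 on the imatinib arrays against -0.00 and 0.06 on the control arrays, a difference of -0.57 (SE 0.0606, adjusted p = 0.00592). All 3 were lower on both imatinib arrays.

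Zbp1, and Ddx58, the RIG-I helicase, gave different answers on their second probes. The dimmer Zbp1 probe differed by 0.09 without a call, and the mean of both probes by -0.25 (adjusted p = 0.0296). Ddx58 lay between 1.93 and 2.18 on its bright probe, with a difference of -0.22 (adjusted p = 0.0435), while its dim probe rose by 0.40 (adjusted p = 0.0135). The mean of both Ddx58 probes differed by 0.09, in the other direction, so its call depends on the probe. Ifih1, the sensor MDA5, lay between 1.36 and 1.51 with a difference of -0.13 and no call. On its dim probe control 2 stood apart at -1.96, against -4.40 and -4.83 on the imatinib arrays and -4.62 on control 1.

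**Figure D2:**
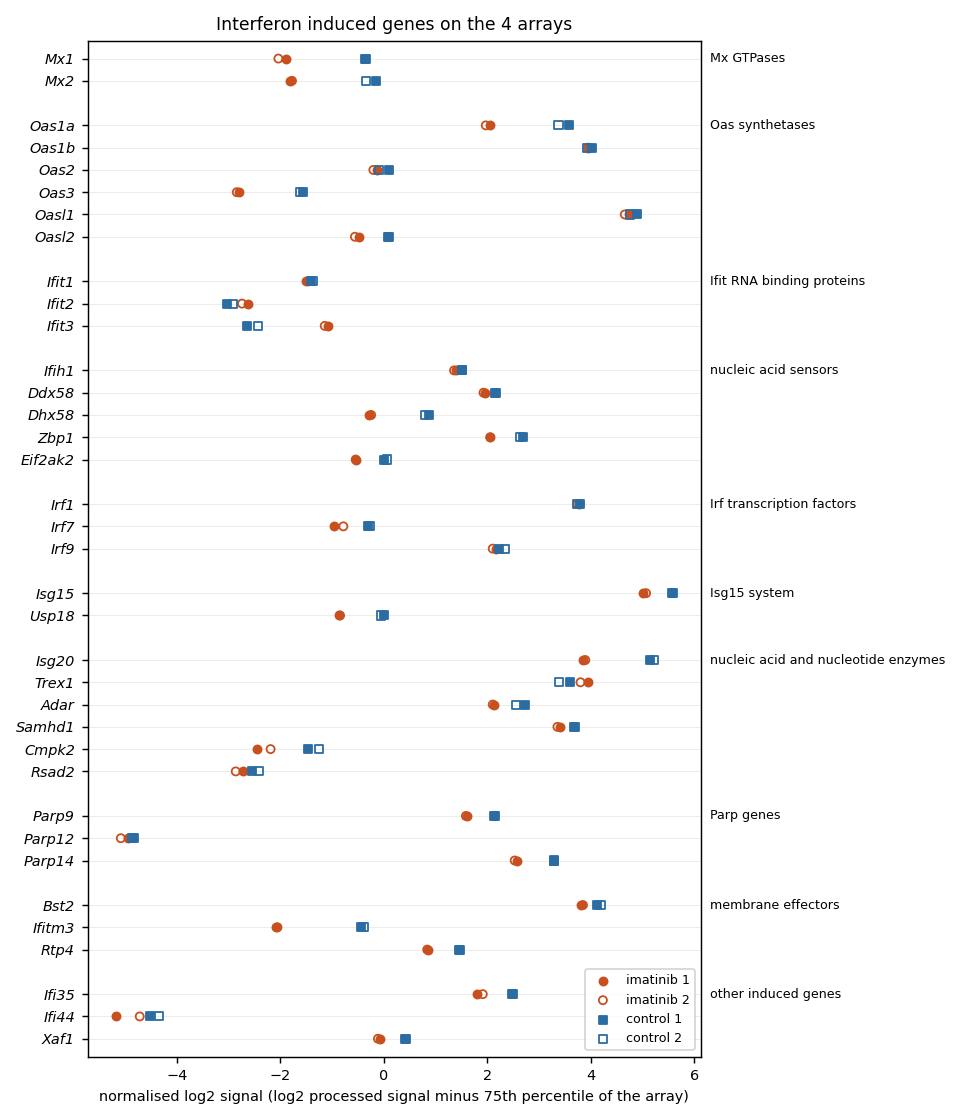
Normalised log2 signal (x axis) of the 36 tested interferon induced genes (rows, grouped by family, brightest probe) on the 2 imatinib arrays (circles) and the 2 control arrays (squares). In Mx1, Mx2, Oas1a, Oas3, Dhx58, Isg20 and Ifitm3 the imatinib arrays lie at least 1 log2 unit below the control arrays on average, and in Ifit3 they lie above them.

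Of the Irf transcription factors, 1 of 3 fell and none rose. Irf7, which amplifies interferon alpha production, had -0.96 and -0.78 on the imatinib arrays against -0.31 and -0.28 on the control arrays, a difference of -0.58 (SE 0.0853, adjusted p = 0.0115). Irf9, the DNA-binding partner of STAT2, lay between 2.10 and 2.34 (difference -0.15, adjusted p = 0.174). Irf1, a factor induced by both types of interferon, lay between 3.73 and 3.79 with a difference of 0.00 (adjusted p = 0.987), and its second probe was not well above background on the imatinib arrays. The groups did not overlap in Irf7 and Irf9, and overlapped in Irf1.

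Both tested members of the Isg15 system fell. Isg15, the ubiquitin-like protein itself, had 5.01 and 5.07 on the imatinib arrays against 5.59 and 5.56 on the control arrays, a difference of -0.53 (SE 0.0601, adjusted p = 0.0067), and its second probe differed by -0.67. Usp18, the protease that removes ISG15 and restrains IFNAR2 signalling, had -0.87 and -0.85 on the imatinib arrays against 0.01 and -0.05 on the control arrays, a difference of -0.84 (SE 0.0607, adjusted p = 0.0028). The 2 groups were apart on every probe of both genes.

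Among enzymes acting on nucleic acids and nucleotides, 4 of 6 fell. Isg20, a 3′ to 5′ exonuclease, had 3.86 and 3.89 on the imatinib arrays against 5.14 and 5.21 on the control arrays, a difference of -1.30 (SE 0.0627, adjusted p = 0.00121), with -1.35 on its second probe. Cmpk2, a mitochondrial nucleotide kinase, had -2.45 and -2.19 on the imatinib arrays against -1.46 and -1.25 on the control arrays, a difference of -0.96 (SE 0.13, adjusted p = 0.00954), with -1.34 on its second probe. Adar, which edits adenosine in double-stranded RNA, had 2.13 and 2.10 on the imatinib arrays against 2.72 and 2.56 on the control arrays, a difference of -0.52 (SE 0.0822, adjusted p = 0.0131). In each of the 3, both probes fell and the groups did not overlap.

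Samhd1, a dNTP hydrolase, lay between 3.35 and 3.69, with a difference of -0.30 on its bright probe (adjusted p = 0.0226) and -0.69 on the other (adjusted p = 0.00572). Rsad2, which encodes viperin and lies next to Cmpk2, differed by -0.31 without passing (range -2.86 to -2.42, adjusted p = 0.0547). Trex1, a DNA exonuclease, had 3.94 and 3.80 on the imatinib arrays against 3.60 and 3.39 on the control arrays, a difference of 0.38 (adjusted p = 0.0529). Of the 14 alternative settings, 6 called Rsad2 lower and 7 called Trex1 higher.

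Of the Parp genes, ADP-ribosyltransferases, 2 of 3 fell. Parp14 had 2.58 and 2.53 on the imatinib arrays against 3.28 and 3.29 on the control arrays, a difference of -0.74 (SE 0.0588, adjusted p = 0.00343). Parp9 had 1.60 and 1.59 on the imatinib arrays against 2.13 and 2.15 on the control arrays, a difference of -0.55 (SE 0.0569, adjusted p = 0.00574). Dtx3l, the ubiquitin ligase partner of PARP9, lies between these genes on chromosome 16 and also fell, by 0.44 on the log2 scale (adjusted p = 0.00915). Parp12 lay between -5.08 and -4.83 with a difference of -0.17 and no call.

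All 3 membrane effectors fell. Ifitm3, which blocks virus entry at endosomes, had -2.09 and -2.05 on the imatinib arrays against -0.44 and -0.39 on the control arrays, a difference of -1.65 (SE 0.0596, adjusted p = 0.000821). Rtp4, a transporter chaperone, had 0.84 and 0.84 on the imatinib arrays against 1.45 and 1.47 on the control arrays, a difference of -0.62 (SE 0.0566, adjusted p = 0.00451). Bst2, tetherin, which holds budding virions on the cell, had 3.80 and 3.85 on the imatinib arrays against 4.13 and 4.19 on the control arrays, a difference of -0.33 (SE 0.0626, adjusted p = 0.0196). Ifitm3 had the lowest difference of all 36 members, and its control signal was 3.15-fold its imatinib signal.

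The remaining members were Ifi35, Xaf1 and Ifi44. Ifi35, a leucine zipper protein, had 1.80 and 1.91 on the imatinib arrays against 2.47 and 2.50 on the control arrays, a difference of -0.63 (SE 0.0695, adjusted p = 0.00644). Xaf1, an antagonist of the apoptosis inhibitor XIAP, had -0.07 and -0.11 on the imatinib arrays against 0.44 and 0.41 on the control arrays, a difference of -0.52 (SE 0.0588, adjusted p = 0.0068), and its second probe also fell. Ifi44 lay between -5.18 and -4.34, with a difference of -0.51 and a wide error (SE 0.184, adjusted p = 0.0944). Its signal was dim. The difference was -0.11 with normexp and -0.78 under spike-in scaling, and 5 of the 14 alternative settings called it lower.

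Across the 11 members with 2 probes well above background on all 4 arrays, 9 had the same call on both probes and 2 had opposite signs (Ddx58 and Zbp1). Counted by probe, 30 of 48 tested member probes fell and 2 rose. No member probe held a 2-base or 3-base repeat of 12 or more bases. Of the promoters searched, 7 of 15 lower members and 3 of 10 members without a call held the ISRE core, as did that of Ifit3, and 8 of the 15 and 2 of the 10 held the GAS letters. The counts are a description of small groups.

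**Figure D3:**
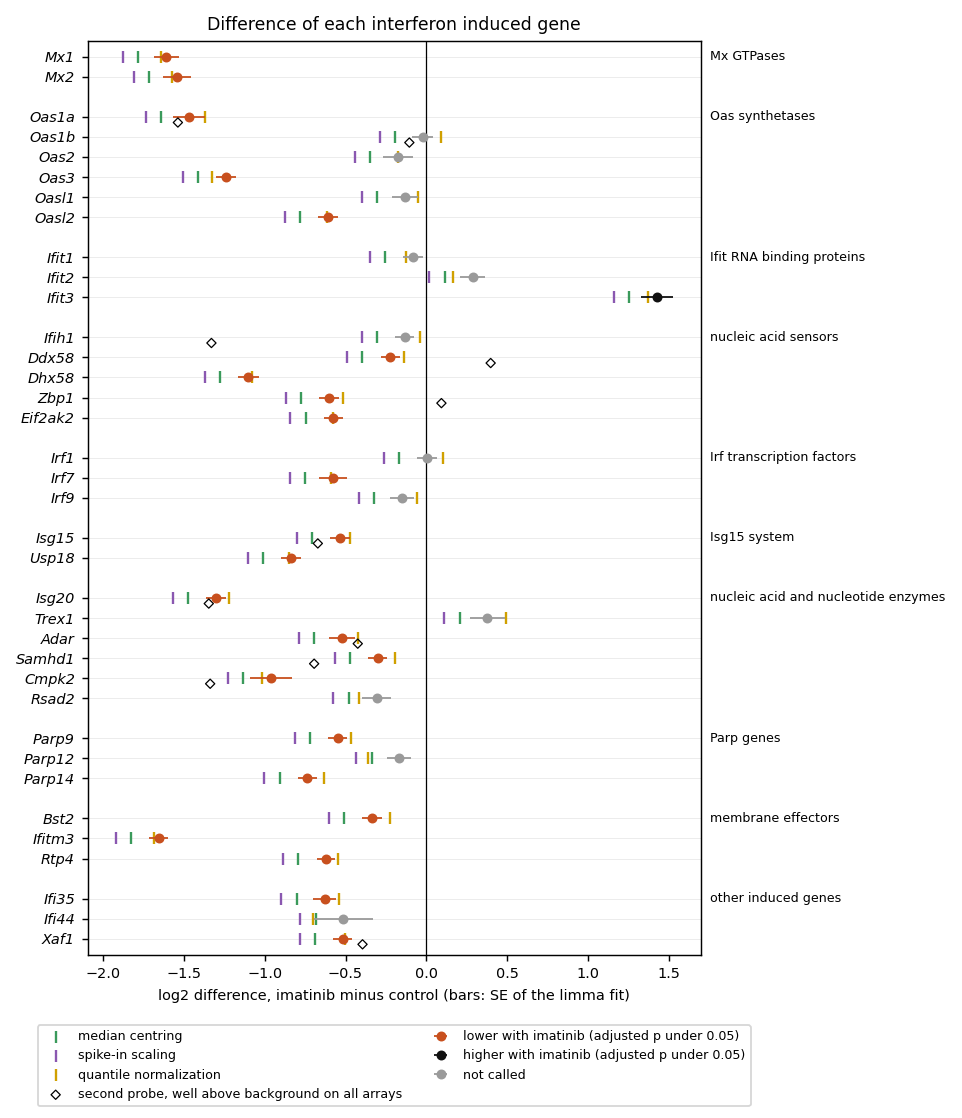
Log2 difference, imatinib minus control (x axis), of each interferon induced gene with its SE from the limma fit; ticks give the value under median centring, spike-in scaling and quantile normalization, and diamonds the second probe where it was well above background on all 4 arrays. The 23 lower members keep values below 0 under all 3 scalings, and the second probes of Ddx58 and Zbp1 lie on the other side of 0 from the first.

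Several members are neighbours in the genome, and neighbours did not always move alike. In the RefSeq order of chromosome 5, Oas3, Oas1f and Oas1a fell, by 1.24, 1.43 and 1.47 on the log2 scale, while Oas2 beside Oas3 (difference -0.17) and Oas1c beside Oas1f (difference -0.19) were not called. Oas1d, the gene next to Oas1a and outside the members, rose, with -1.11 and -1.08 on the imatinib arrays against -2.62 and -2.68 on the control arrays (difference 1.56, SE 0.062, adjusted p = 0.000943). In the Ifitm cluster on chromosome 7, Ifitm3 fell while its neighbour Ifitm1 rose by 1.24 (adjusted p = 0.00175) and Ifitm2 beside that rose by 1.97 (adjusted p = 0.000746). Oas1d, Oas1c, Ifitm1 and Dtx3l were picked as neighbours after their values were seen, and the Oas1c and Oas1d probes share a run of 16 bases.

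**Figure D4:**
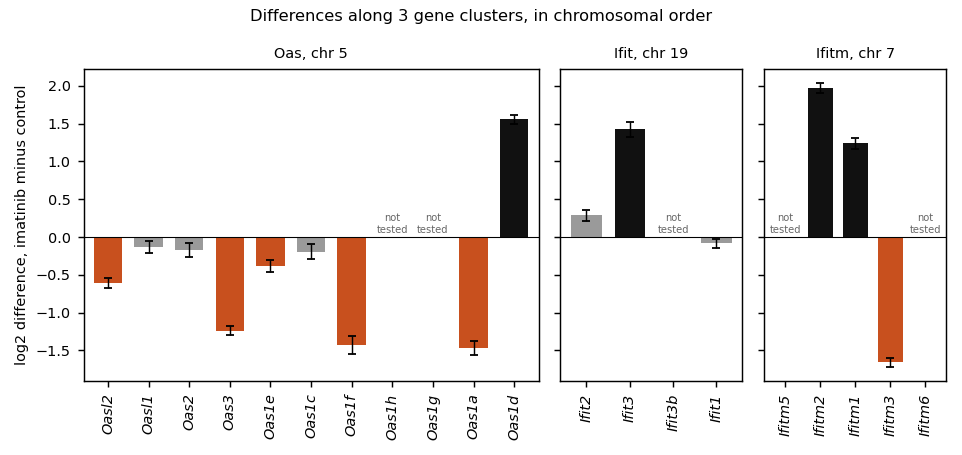
Log2 difference, imatinib minus control (y axis, bars from 0 with SE), of genes in chromosomal order in the Oas, Ifit and Ifitm clusters, where the Oasl pair on the left lies apart from the other Oas genes. Orange bars are lower with imatinib, black bars higher, grey bars without a call and genes marked not tested had no tested probe, and within each of the Oas and Ifitm clusters genes moved in both directions.

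Upstream of these targets stand the ligands, of which Ifnb1, Ifna4 and Ifne were not well above background on any array. Of 12 tested ligand genes 2 rose and 1 fell, beside 18.8% and 22.8% of all genes. The remaining 9 gave no call (interferon alpha genes between -0.05 and 0.38, Il28b at -0.02). Ifng, the type II interferon made by T and NK cells, had -1.96 and -1.98 on the imatinib arrays against -4.32 and -4.23 on the control arrays, a difference of 2.31 (SE 0.0646, adjusted p = 0.000711), or 4.96-fold. Both imatinib arrays lay above both control arrays, and the difference was 1.28 with normexp. Ifna11 had -4.27 and -3.99 on the imatinib arrays against -5.61 and -5.35 on the control arrays (difference 1.35, SE 0.147, adjusted p = 0.0063). Ifnk, interferon kappa, had -5.55 and -5.81 on the imatinib arrays against -4.20 and -4.42 on the control arrays (difference -1.37, SE 0.131, adjusted p = 0.00487). With normexp these differences were 0.51 for Ifna11 and -0.20 for Ifnk. The Ifna genes are near copies of each other, so the targets of their probes are uncertain.

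Of 6 tested receptor genes 5 were higher and none lower, beside 18.8% and 22.8% of all genes. Ifnar1 had 1.52 and 1.45 on the imatinib arrays against 1.06 and 0.97 on the control arrays (difference 0.47, adjusted p = 0.011), though its other probes, at 0.07 and 0.34, were not called. Ifnar2 had 1.35 and 1.33 on the imatinib arrays against 0.91 and 0.93 on the control arrays (difference 0.42, adjusted p = 0.00986). The type II chain Ifngr1 rose by 0.76 and Ifngr2 differed by 0.10 without a call, while Il10rb and Il28ra, the chains for interferon lambda, rose by 0.49 and 1.05. Spike-in scaling left 2 of the 5 calls, and leaving out either imatinib array left 1, that of Ifngr1. Under spike-in scaling, where 11.2% of all genes were higher, Ifnar1 differed by 0.21 (adjusted p = 0.112) and Ifnar2 by 0.15 (adjusted p = 0.218).

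Of the 5 kinases and STATs described here, 1 rose and 1 fell, beside 18.8% and 22.8% of all genes, and 3 were not called. Stat2, Stat3 and Jak1 differed by -0.10, -0.12 and -0.04 and were not called. Jak2, which serves the type II receptor, rose by 0.77 (adjusted p = 0.00459), and Tyk2, which serves the type I receptor, fell by 0.26 (adjusted p = 0.0423), a call lost on leaving out any one of the 4 arrays. Stat3, Stat2 and Jak1 were lower under spike-in scaling, with differences of -0.38, -0.36 and -0.30, where 45.0% of all genes were lower.

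Of 20 tested genes that act in the induction of interferon, 5 fell and 2 rose, beside 22.8% and 18.8% of all genes. Under spike-in scaling 13 fell and none rose, where 45.0% of all genes fell and 11.2% rose. Tmem173, the DNA-pathway adaptor STING, had 5.01 and 5.06 on the imatinib arrays against 5.75 and 5.81 on the control arrays, a difference of -0.75 (adjusted p = 0.00372). Myd88, the Toll-like receptor adaptor, fell by 0.56 and Ikbke, a kinase that phosphorylates IRF3 and IRF7, by 0.41, while the ubiquitin ligase gene Traf6 rose by 0.34 and E330016A19Rik, the file's name for the DNA sensor cGAS, by 0.49. Tlr4, Ticam1, Tbk1 and Irf3, which carry the LPS signal to interferon beta, were not called, with differences of 0.14, 0.02, -0.27 and -0.20. Without imatinib 1, only 1 gene of the list fell and none rose, where 6.4% of all genes fell and 9.96% rose.

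Among 19 tested negative regulators, 5 rose and 3 fell, beside 18.8% and 22.8% of all genes. Under spike-in scaling 1 rose and 10 fell, again beside 11.2% and 45.0% of all genes. Socs1, which blocks JAK activity at the interferon receptors, had 3.12 and 2.97 on the imatinib arrays against 1.94 and 1.75 on the control arrays, a difference of 1.20 (SE 0.105, adjusted p = 0.00409), or 2.30-fold. The groups of Socs1 did not overlap, with both imatinib arrays above both control arrays, and its call held in all 14 alternatives. Irf2bp2, a corepressor partner of IRF2, rose by 0.49 and Rnf125, a ubiquitin ligase for RIG-I, by 0.43. Trim30 fell by 0.71, Pias2, a SUMO ligase, by 0.46 and Dusp1, a MAP kinase phosphatase, by 0.23. With the exception of Socs1, each of these calls was lost without at least 1 of the arrays, and without imatinib 2 no gene of the list fell.

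**Figure D5:**
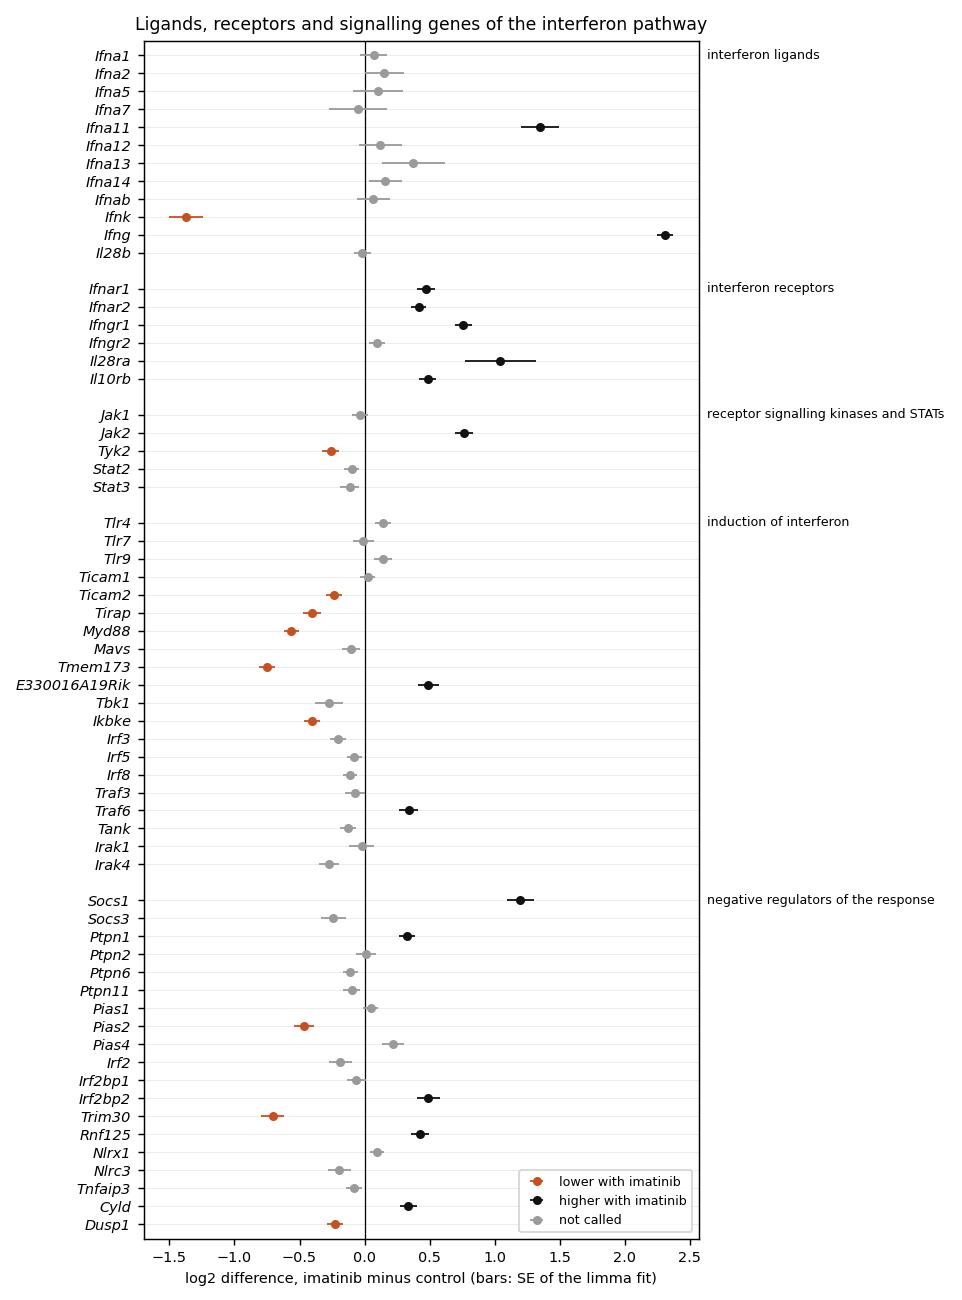
Log2 difference, imatinib minus control (x axis), with SE from the limma fit, for ligands, receptors, kinases and STATs, genes that induce interferon and negative regulators. Ifng, Ifna11, Socs1 and 5 of 6 receptor genes lie right of 0, while Stat2 and Jak1 lie near it.

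A longer list of interferon induced genes outside the members held genes of both directions, more of them lower. Of 59 tested genes 27 fell and 8 rose, beside 22.8% and 18.8% of all genes, with a median difference of -0.24. Fewer genes of this list, and fewer of all genes, were called lower when an imatinib array was left out, which leaves 1 sample in that group. Phf11 fell by 1.58, Oas1f by 1.43 and Mnda, a DNA-binding protein of the HIN200 family, by 1.37. Slfn1, a Schlafen gene that restrains T cell growth, rose by 2.20 (0.98 with normexp) and Ifitm2, a relative of Ifitm3, by 1.97. Sp110, a nuclear body protein, rose by 1.33 on its brightest probe, but that probe holds a repeat of 37 bases and the other Sp110 probes differed by 0.02 and -0.29, so this value is uncertain.

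Markers of several cell types differed between the groups. Of all genes tested, 18.8% rose and 22.8% fell, and the counts of each marker list stand beside these shares. All 10 B cell markers were well above background on all 4 arrays, and 4 fell and 4 rose (median -0.05), with a summed signal of 268 and 277 on the imatinib arrays, against 308 and 286 on the control arrays, in units of the 75th percentile. Under spike-in scaling 6 B cell markers fell and 1 rose, where 45.0% of all genes fell and 11.2% rose. Of 12 T cell markers 10 rose and none fell (median 1.98), with a summed signal of 17.7 and 18.1 on the imatinib arrays against 7.16 and 6.28 on the control arrays. Of 12 macrophage and monocyte markers 7 rose and 1 fell (median 1.07), with a summed signal of 10.6 and 11.0 on the imatinib arrays against 8.02 and 7.55 on the control arrays. The 1 that fell was Itgam, on a probe that holds a repeat of 20 bases, and its other probes differed by 0.42 and 0.01 and were not called. Without Itgam the sum was 8.93 and 9.22 on the imatinib arrays against 4.07 and 3.99 on the control arrays. The summed signal of the members was 188 and 186 on the imatinib arrays, against 257 and 251 on the control arrays.

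Plasmacytoid dendritic cells are the textbook high producers of type I interferon. Of 9 tested markers of them 4 rose and 1, the member Bst2, fell, beside 18.8% and 22.8% of all genes. The same shares stand beside the counts of the other marker lists below. The summed signal of the 9 was 304 and 308 on the imatinib arrays, against 207 and 188 on the control arrays. Without Ly6d, which B lineage cells also express, the sum was 175 and 177 on the imatinib arrays against 160 and 143 on the control arrays. Siglech, which marks these cells, differed by 0.29 and was not called, while Ly6d had 7.01 and 7.03 on the imatinib arrays against 5.56 and 5.47 on the control arrays (adjusted p = 0.00102). Of 5 tested NK cell markers 4 rose, and 2 under spike-in scaling, where 11.2% of all genes rose. Of 5 tested mast cell and basophil markers 4 rose and 1 fell, but Cpa3 and Mcpt8, among the 4, were not well above background on the control arrays. Of 7 neutrophil markers 4 rose and 1 fell, with S100a8 higher by 3.24. Of 5 conventional dendritic cell markers 2 rose and 2 fell. Itgax rose by 3.44, but was not well above background on the control arrays, and Ccr7 rose by 1.34. Flt3 fell by 1.42 and Batf3 by 1.20. Of 7 plasma cell markers 3 rose and 2 fell (median 0.01). Xbp1 rose by 0.55, Prdm1 by 0.24 and Irf4 by 0.22, while Igj, the joining chain of antibodies, and Tnfrsf17 differed by -0.87 and -0.71. Of 4 erythroid markers 2 rose, and of 5 stroma and endothelium markers 1 fell. The part of these markers in the values of the interferon genes, Ifng included, was not tested.

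Of the 24 called members, 17 kept their call in all 14 alternative settings. Without imatinib 1 the calls of Isg15 (adjusted p = 0.0536), Irf7 (0.0569), Adar (0.0684), Samhd1 (0.105), Bst2 (0.121) and Ddx58 (0.182) were lost, and without imatinib 2 those of Xaf1 (0.0561), Adar (0.0746), Bst2 (0.0983), Samhd1 (0.144) and Ddx58 (0.22). Without control 2 the calls of Irf7 (0.0513), Samhd1 (0.0653), Bst2 (0.0651) and Ddx58 (0.0905) were lost, and without control 1 those of Samhd1 (0.0645) and Ddx58 (0.104). Mx1, Mx2, Oas1a, Oas3, Oasl2, Dhx58, Zbp1, Eif2ak2, Usp18, Isg20, Cmpk2, Parp9, Parp14, Ifitm3, Rtp4, Ifi35 and Ifit3 were the 17. Median centring and spike-in scaling moved the median of all probes to -0.19 and -0.28, against -0.01 with the 75th percentile, and 29 and 32 members were then lower, where 35.3% and 45.0% of all genes were. Without imatinib 1 and without imatinib 2, 17 and 19 members were lower and 1 higher, where 6.4% and 6.58% of all genes were lower and 9.96% and 9.57% higher. Over all probes 6016 fell and 4737 rose with the 75th percentile. Median centring turned this into 9251 lower and 3305 higher probes, and scaling to the spike-ins into 11738 lower and 2802 higher probes.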

How the data were processed

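RNA of 4 samples (2 imatinib, 2 control) was measured on 1-colour Agilent arrays of design 026655, all on 1 slide (imatinib at positions 2 and 4, control at positions 1 and 3). The deposited scanner files hold spot intensities that the authors extracted from the scans using Feature Extraction 9.1.3.1, per the file headers. The deposited value table gives log2 values, which equalled the log2 processed signal minus one constant per array within 0.01 for 99.9% of probes, with column medians of -3.99 and -3.92 (imatinib) and -4.10 and -4.17 (control); the version of GeneSpringGX, named in the series' text, is not given in the sources used here.

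Here spots with outlier flags and control spots were dropped, spots of a probe averaged and each array scaled to its 75th percentile. A probe entered the test when both arrays of some group called it well above background (25465, less 92 with a flagged value) with limma 3.58.1 in R 4.3.3 (lmFit and eBayes with group alone in the model, two-sided, Benjamini-Hochberg over 25373 probes; 2 residual and 2.06 prior degrees of freedom). The fit was tested on simulated data. Of the 51 member probes, 47 matched a RefSeq accession of the same symbol. Array values are given for up to 3 called members per family with the largest difference, up to 3 called genes per direction of each pathway list, and the ligands, receptors, kinases and STATs, of which 1 is not reported here; neighbours were added after values were seen. The members and lists were chosen with earlier results of these data known.

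The 14 alternatives were normexp (offset 50), quantile normalization, median centring, spike-in scaling, leaving dim probes in, keeping just the probes above background on 4 of 4 arrays, a block for the replicate number, leaving out each array, the deposited table, a trended robust variance model, and the mean of all probes of a gene. Depth does not apply to arrays; the number of arrays limits precision.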

Additional observations from a re-analysis of the deposited data

How the results depend on the processing

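Of the members, 23 were lower with imatinib, and every alternative gave a count within 1.5 times of this, from 17 without imatinib 1 to 32 under spike-in scaling. The count of higher members, 1, was 3 with normexp, with probes above background on all arrays and with the trended robust model, 2 under quantile normalization, with the deposited table and with the replicate block, and 1 to 2 when 1 array was left out. The members' median of -0.53 was -0.49 under quantile normalization, -0.70 under median centring, -0.79 under spike-in scaling, -0.56 with the mean of all probes, and -0.55 to -0.52 with 1 array left out. Over all probes, 6016 were lower and 4737 higher. Under median centring 9251 were lower and 3305 higher, under spike-in scaling 11738 lower and 2802 higher, and without the filter on dim probes 2374 lower and 2812 higher. With 1 array left out 1704 to 4425 were lower and 2377 to 4560 higher. The cause of these shifts was not tested. Ddx58 changed direction with the mean of all probes (log2 difference 0.087). Same-numbered samples did not deviate together over the tested probes (r = -0.07). The labels do not say whether the numbers pair the samples, and this value cannot decide it. With the replicate block 3958 probes were lower and 21 members were lower, 3 member calls were lost and 2 gained. Leaving out an array leaves 1 sample in a group, assumed to vary like the others.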
